A study of Homo sapiens with 6 samples.

Results

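The mitochondrial ribosomal protein genes are the nuclear genes whose symbols start with MRPL or MRPS and a digit. They were read from 6 bulk RNA-seq libraries of irradiated HK-2 cells, an immortalized human proximal tubular epithelial line. All libraries came from cells exposed to 8 Gy of X-rays and collected at day 7. The IR+NC-LV group (n = 3) carried a negative control lentivirus and the IR+PR-LV group (n = 3) a PRDM16 overexpression lentivirus, in both cases as puromycin-selected pools of transduced cells. PRDM16 is a transcriptional regulator with a PR domain and zinc fingers. No unirradiated library was among them, so the values compare the lentiviruses within irradiated cells only. The gene names numbered 34644, of which 85 began with the prefix. After 7 antisense or divergent transcripts were set aside, 78 members remained, with 51 in the large subunit, 26 in the small subunit and MRPS36 outside the ribosome. Nothing in the labels says that the numbered libraries were separate cultures, and p-values therefore measure only the spread between these libraries, which may be technical.

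Mitochondria keep a ribosome of their own, descended from that of bacteria, which translates the few mRNAs coded by mitochondrial DNA into membrane subunits of the respiratory chain and ATP synthase. Its rRNAs come from mitochondrial DNA, but every protein is coded in the nucleus, made in the cytosol and imported. Some of the proteins have a bacterial counterpart, while others were added in the mitochondrial lineage. In the proximal tubule, a segment that reabsorbs solutes at a high cost in ATP, respiration is the main energy supply. By origin, 46 members have a bacterial counterpart and 31 are mitochondrial additions. In spite of their names, MRPS30 and MRPS18A sit in the large subunit, and MRPS36 is now known as a part of the alpha-ketoglutarate dehydrogenase complex. MRPS18A, MRPS18B and MRPS18C are 3 homologues that occupy different places.

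The total count per library lay between 13407074 and 28540041, and the members held between 49197 and 113931 of these counts. For PRDM16, 2, 0 and 1 counts were found in IR+NC-LV, compared with 14, 10 and 8 in IR+PR-LV, so the groups did not overlap but the transcript was counted rarely in both. Whether transcripts of the construct can be assigned to the annotated PRDM16 gene is not given in the sources used here, so these counts do not measure the overexpression itself. Among the cell type markers, the keratins KRT8, KRT18 and KRT19, the tubular factor PAX8 and GGT1 were well expressed, at a mean of 69.9 TPM (a level per transcript length and library depth) or more. In contrast, the brush border and transporter genes LRP2, ANPEP, CUBN and SLC34A1, and the epithelial cadherin CDH1, were each below 0.5 TPM on average. PAX2 and AQP1 were at 3.06 and 2.92 TPM, and EPCAM at 53.3 TPM. The leukocyte genes PTPRC and CD3E and the endothelial genes PECAM1, CDH5 and VWF were at or below 0.201 TPM, while CD68, which many cell types express, reached 177 TPM. Of the 4 fibroblast genes, COL1A2 and DCN were at 0.0321 and 0.0852 TPM, PDGFRB at 0.788 TPM and COL1A1 at 10.5 TPM.

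Housekeeping promoters commonly lack a TATA box, and those of the members were read for it and for sites of ETS factors, YY1 and NRF1, which are known regulators of nuclear genes for mitochondria. RefSeq promoter windows (GRCh38.p14, 250 bases before the start and 50 after, 300 in all) were matched by symbol for 69 of 78 members. MRPL2, MRPL10, MRPL13, MRPL15, MRPL21, MRPL23, MRPL35, MRPS28 and MRPS36 had no entry. Each motif was searched as exact letters on both strands, and the letters of no motif are contained in those of another. The ETS letters CCGGAAGT, the core bound by GABPA and other ETS factors, occurred in 15.9% of the member windows (11 members), against 8.19% of the windows of tested gene names and 4.44% of all RefSeq promoter windows of the same length. The TATA letters TATAAA were present in 2.90% of the member windows and 6.04% of those of tested names. The members with the highest level and those with an unadjusted p under 0.05 are shown first, with 120 bases before the start and 10 after, and the ETS letters, or those of YY1 described below, in capitals. The stretches lie, in the same order, as MRPL51 at chr12:6493253-6493382 on the reverse strand, MRPL3 at chr3:131502962-131503091 on the reverse strand, MRPL19 at chr2:75646663-75646792 on the forward strand, MRPL52 at chr14:22829767-22829896 on the forward strand.
MRPL51: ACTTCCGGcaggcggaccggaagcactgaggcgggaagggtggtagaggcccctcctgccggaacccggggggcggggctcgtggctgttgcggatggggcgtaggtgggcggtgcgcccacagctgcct
MRPL3: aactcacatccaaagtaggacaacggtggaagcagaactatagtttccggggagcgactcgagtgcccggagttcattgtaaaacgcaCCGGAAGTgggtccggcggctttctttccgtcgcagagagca
MRPL19: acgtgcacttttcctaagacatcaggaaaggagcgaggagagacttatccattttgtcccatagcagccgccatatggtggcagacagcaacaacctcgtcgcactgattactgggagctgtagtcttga
MRPL52: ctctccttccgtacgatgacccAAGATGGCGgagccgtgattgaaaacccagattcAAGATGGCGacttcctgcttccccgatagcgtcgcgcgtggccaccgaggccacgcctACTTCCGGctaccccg
MRPL51 held its ETS letters 120 bases before the start and MRPL3 held them 32 bases before. In MRPL52 they began 6 bases before the start and ran across it, and MRPL52 also held the YY1 letters 98 and 64 bases before the start. MRPL19 had no match in the printed stretch.

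The letters AAGATGGCG, taken from the binding site of the factor YY1, were found in 18.8% of member windows (13 members), against 3.73% of tested names and 1.85% of all windows. In 10 of these members the match lay after the start, beginning between positions 7 and 36, and read forward along the gene's own strand. MRPL32 and MRPL36 had the letters reversed and before the start, at positions -223 and -36. The 10 matches after the start are printed along each gene's strand with 5 flanking bases on each side and the match in capitals, to show how alike their surroundings are. They lie, with the strand in brackets, as MRPL22 at chr5:154941103-154941121 (+), MRPL38 at chr17:75904865-75904883 (-), MRPL42 at chr12:93467517-93467535 (+), MRPL46 at chr15:88467367-88467385 (-), MRPL50 at chr9:101398582-101398600 (-), MRPS10 at chr6:42217839-42217857 (-), MRPS18A at chr6:43687769-43687787 (-), MRPS18B at chr6:30617858-30617876 (+), MRPS24 at chr7:43869485-43869503 (-), MRPS30 at chr5:44808955-44808973 (+).
MRPL22: ggcgaAAGATGGCGgcggc
MRPL38: gagggAAGATGGCGgcgcc
MRPL42: gaaacAAGATGGCGggttc
MRPL46: aacgaAAGATGGCGgcgcc
MRPL50: catcgAAGATGGCGgcgcg
MRPS10: ccggcAAGATGGCGgcgcg
MRPS18A: ttttgAAGATGGCGgccct
MRPS18B: acgtcAAGATGGCGgcgtc
MRPS24: ggcccAAGATGGCGgcctc
MRPS30: gggcaAAGATGGCGgcggc
In 9 of the 10 the match was followed by the bases gc, and MRPL42 was the exception. How often gc follows these letters in windows of other genes was not counted, so it is not shown to be particular to the members. In all, 24 members (34.8%) held ETS, YY1 or NRF1 letters, against 14.5% of tested names and 7.86% of all windows. The NRF1 letters GCGCATGCG were found in MRPL17, MRPL22 and MRPS18C (4.35% of member windows, 3.60% of tested names). The GC box letters GGGGCGGGG and the CCAAT letters did not stand out, at 24.6% against 26.7% and 29.0% against 36.4% of tested names. These matches describe letters only, and binding was not measured here. Many members also started back to back with a neighbour on the opposite strand. Such a pair within 1000 bases was found for 26 of 78 members (33.3%) and for 19.9% of tested gene names on chromosomes. MRPL46 and MRPS11 formed a pair with each other, their starts 320 bases apart, and MRPL21 lay 23 bases from IGHMBP2.

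The levels of the members spanned a wide range, most of it from a few low genes. The median member stood at 70.8 TPM (quartiles 44.8 and 111), with 46 members between 50 and 200 TPM, 9 above 200 and 6 below 20. For comparison, the median tested gene name was at 17.1 TPM, and 81.2% of tested names lay below the median member. MRPL51, a mitochondrial addition to the large subunit, was highest on average, with 460, 469 and 401 TPM in IR+NC-LV and 440, 434 and 419 TPM in IR+PR-LV. MRPL3, the counterpart of a bacterial core protein near the peptidyl transferase centre, had 355, 372 and 397 TPM in IR+NC-LV and 385, 444 and 457 TPM in IR+PR-LV. The order of these 2 genes was not stable, since MRPL51 was the higher in 4 of 6 libraries and MRPL3 in IR+PR-LV 2 and 3.

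MRPL33, MRPS15 and MRPS35 followed, at means of 261, 251 and 250 TPM. MRPL33, a small protein with a bacterial counterpart, varied most of these, from 204 TPM in IR+NC-LV 3 to 342 TPM in IR+NC-LV 2. MRPS15, the counterpart of bacterial S15, stayed between 242 and 261 TPM, and MRPS35, a mitochondrial addition, between 234 and 268 TPM, so these 3 could not be ordered beyond their spread. The 5 highest members held 21.2% of the summed TPM of all members. The ranking was stable, with a Spearman coefficient across members between 0.973 and 0.994 over the 15 pairs of libraries, and 8 members were among the 10 highest in every library. Shorter members had higher TPM as a description across genes (Spearman coefficient of TPM with length -0.467, n = 78), and TPM is itself computed with that length.

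At the low end, MRPS25 had 13.9 to 15.1 TPM and MRPL55 17.0 to 20.5 TPM, both with little difference between libraries. MRPS12, the counterpart of S12 at the decoding centre, had 19.6, 18.4 and 5.48 TPM in IR+NC-LV and 14.9, 8.75 and 6.59 TPM in IR+PR-LV. MRPS18B had 6.68, 24.8 and 8.61 TPM against 4.89, 12.3 and 9.81 TPM. MRPL23, the counterpart of a protein at the exit of the polypeptide tunnel, was far lower than any other tested member, with 1.57, 0.18 and 1.74 TPM in IR+NC-LV and 0.46, 0.62 and 0.85 TPM in IR+PR-LV. MRPS24 was lower still, at 0.29 to 1.14 TPM, and its 14 counts over the 6 libraries were too few for the test. Every one of the 78 members had a count in every library, and 2 of them had a library with fewer than 10 counts. Per gene, the mean level of the large subunit was 1.22 to 1.28 times that of the small subunit in every library. This ratio covers the named members only and leaves out ribosomal proteins that carry other names. It includes MRPS12, MRPS18B, MRPS24 and MRPL23, whose low levels are uncertain for reasons of listing or overlap given below. Other members with uncertain levels, among them MRPL45 and MRPS28, are included too.

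**Figure D1:**
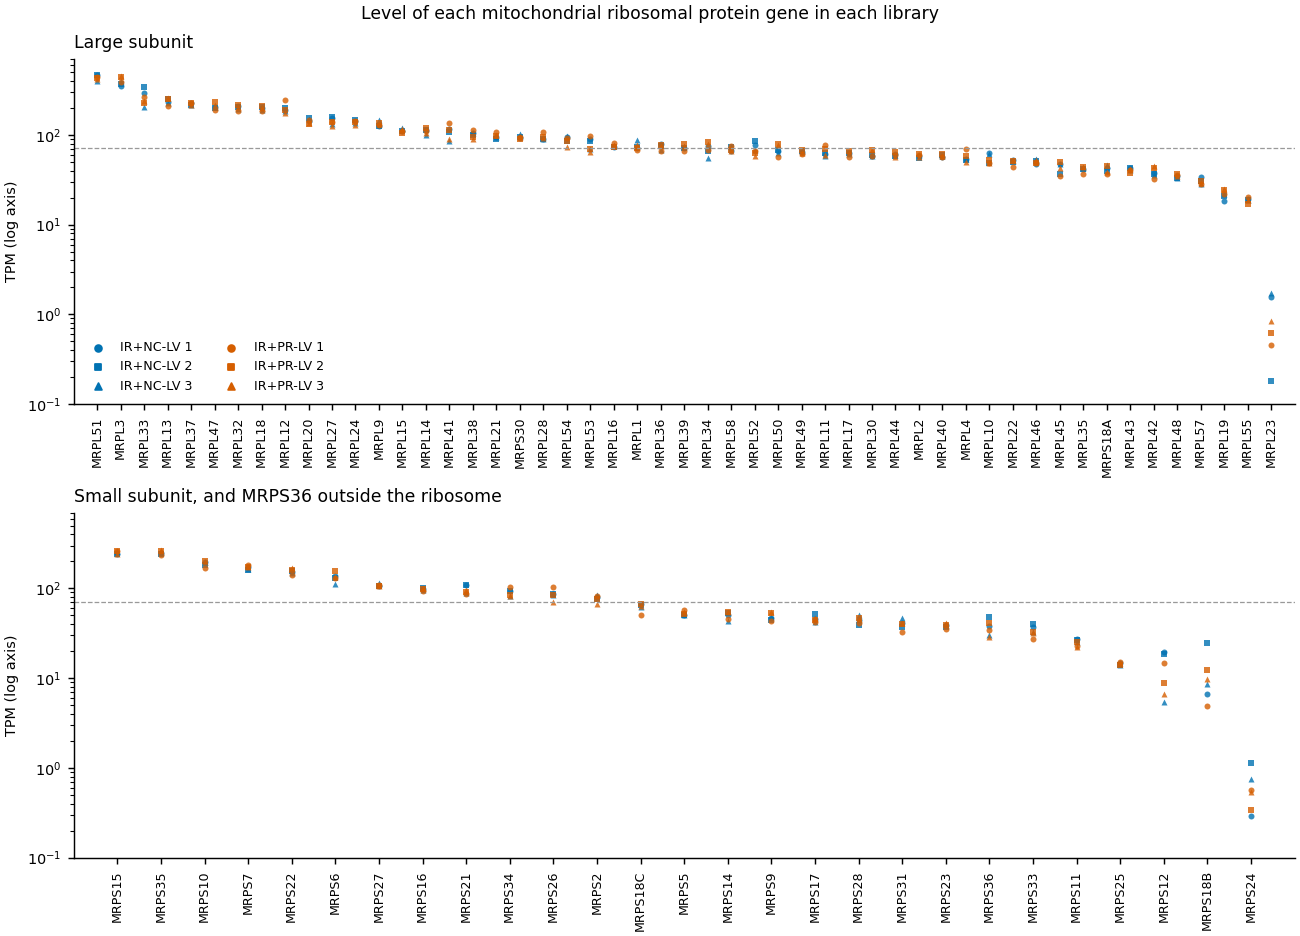
Deposited TPM (log axis) of each of the 78 members in each library, with the large subunit above and the small subunit and MRPS36 below, ordered by mean. Colours mark the groups, symbols the library number, and the dashed line the median member at 70.8 TPM. Most members lie within a narrow band in all 6 libraries, while MRPL23 and MRPS24 lie near 1 TPM and MRPS12 and MRPS18B spread widely.

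Several of the lowest members were listed unusually in the files. The annotation lists 5 members in more than 1 row, because alternate scaffolds and patches of the genome carry further copies (88 rows for 78 members), and near-identical copies can split or lose reads. MRPS18B had 7 rows, 1 on chromosome 6 (chr6:30617320-30626393) and 6 on alternate scaffolds, and 97.5% of its 593 counts were on the scaffolds. Its total in IR+NC-LV 2 came mostly from a single scaffold row, which held 195 counts there and 6 to 29 in each other library. MRPS12 had 0 counts on chromosome 19 and all 539 on a patch row. MRPL45, a mitochondrial addition beside the tunnel exit that holds the ribosome at the inner membrane, had 95.3% of 2374 counts on an alternate scaffold. In contrast, MRPL23 had 91 of its 92 counts on chromosome 11 (chr11:1947272-2013176), and MRPS36 had 1721 of 1764 on chromosome 5. The levels of MRPS18B, MRPS12 and MRPL45 are uncertain for this reason, and its part in their spread between libraries was not tested. Whether reads of MRPL23 and MRPS36 were lost between their 2 rows was not tested either, so the low level of MRPL23 is uncertain too.

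Other members shared exon bases with another gene, and reads from shared bases can be hard to assign. On opposite strands this depends on whether counting used the strand, which is not given in the sources used here. On the same strand it holds either way. MRPS24 shared 90.9% of its exon bases with URGCP-MRPS24, a readthrough gene on the same strand, which itself had only 5 counts. On the opposite strand, MRPL19 shared 84.4% of its exon bases with GCFC2, MRPS18C 83.6% with ABRAXAS1, MRPS25 53.9% with NR2C2 and MRPS18A 50.8% with RSPH9. MRPS28 shared 73.3% with TPD52 on the same strand, and TPD52 had 16312 counts against 1315 for MRPS28. The levels of MRPS24 and MRPS28 are therefore uncertain as well. Those of MRPL19, MRPS18C, MRPS25 and MRPS18A are also uncertain if counting did not use the strand.

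The libraries of a group agreed closely for most members. The coefficient of variation (CV) within groups of normalized CPM (counts scaled to library depth) had a median of 7.80% over the tested members (quartiles 5.61% and 11.5%), beside 9.31% over all tested gene names. Counting error alone would give a median of 3.53% at these depths. The CV was under 10% for 51 members and above 20% for 6. The smallest CV was that of MRPS30 (1.36%), at 47.2, 48.6 and 48.6 CPM in IR+NC-LV and 48.0, 47.1 and 48.0 CPM in IR+PR-LV. MRPS27, a small-subunit protein with pentatricopeptide repeats (2.30%), and MRPL15, the counterpart of a bacterial core protein (3.05%), came next. With 3 libraries per group, CVs this close to or below counting error can come out low by chance. They do not show that these genes are steadier than other members. The largest values were those of MRPS18B (62.5%), MRPL23 (52.5%) and MRPS12 (49.9%), which are also among the lowest tested members. MRPS36 (23.7%), MRPL33 (21.0%) and MRPL53 (20.2%) were the others above 20%.

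**Figure D2:**
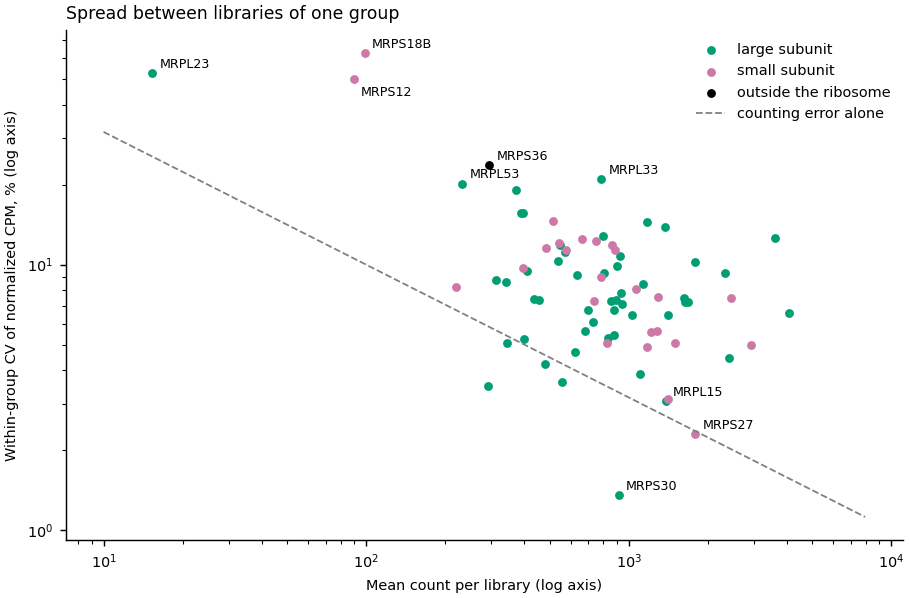
Within-group CV of normalized CPM (%, log axis) against mean count per library (log axis) for the 77 tested members, coloured by subunit. The dashed line is the CV from counting error alone. MRPS18B, MRPL23 and MRPS12 lie far above the other members, and MRPS30 is the lowest at 1.36%.

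IR+PR-LV was then compared with IR+NC-LV to ask whether PRDM16 overexpression was accompanied by a different level of these genes. No member differed between the groups past the threshold. With edgeR's quasi-likelihood test, 0 of 77 tested members had an adjusted p under 0.05, and the smallest adjusted p was 0.304. The background was small too, with 12 of 15054 tested gene names called (0.0797%), 4 higher (0.0266%) and 8 lower (0.0531%). At an unadjusted p under 0.05 there were 3 members, 2 higher and 1 lower in IR+PR-LV, while 10.5% of all tested names met that limit (4.41% higher and 6.09% lower). DESeq2 called 0 members as well, beside 1.03% of the 14650 names to which it gave an adjusted p. It gave 4 of 78 members an unadjusted p under 0.05. The share was 4.72% over all 27403 names with any count, a wider set that takes in names with very few counts. The sizes were bounded for most members. The 95% interval of the fold change lay within 1.5-fold in either direction for 73 of 77 (94.8%), against 74.3% of all tested names. The exceptions among the members were MRPL23, MRPL33, MRPS12 and MRPS18B. The share within the bound was also high in lists read below, at 100% for proliferation genes and 96.4% for mitoribosome assembly genes. It was 86.7% for cytosolic ribosomal protein genes and 88.5% for nuclear-coded respiratory chain genes.

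The fold changes were centred near 0. The median log2 fold change was 0.03 over the tested members (quartiles -0.05 and 0.09) and 0.00 over all tested names. The sign was positive for 50 members and negative for 27, a share of 64.9% positive beside 51.1% of all tested names. The log2 fold change was within 0.2 of 0 for 68 members. In the large subunit 34 of 51 values were positive (median 0.03) and in the small subunit 16 of 25 (median 0.04). Members with a bacterial counterpart had a median of 0.03 and mitochondrial additions a median of 0.02. Differences between these medians were not tested.

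**Figure D3:**
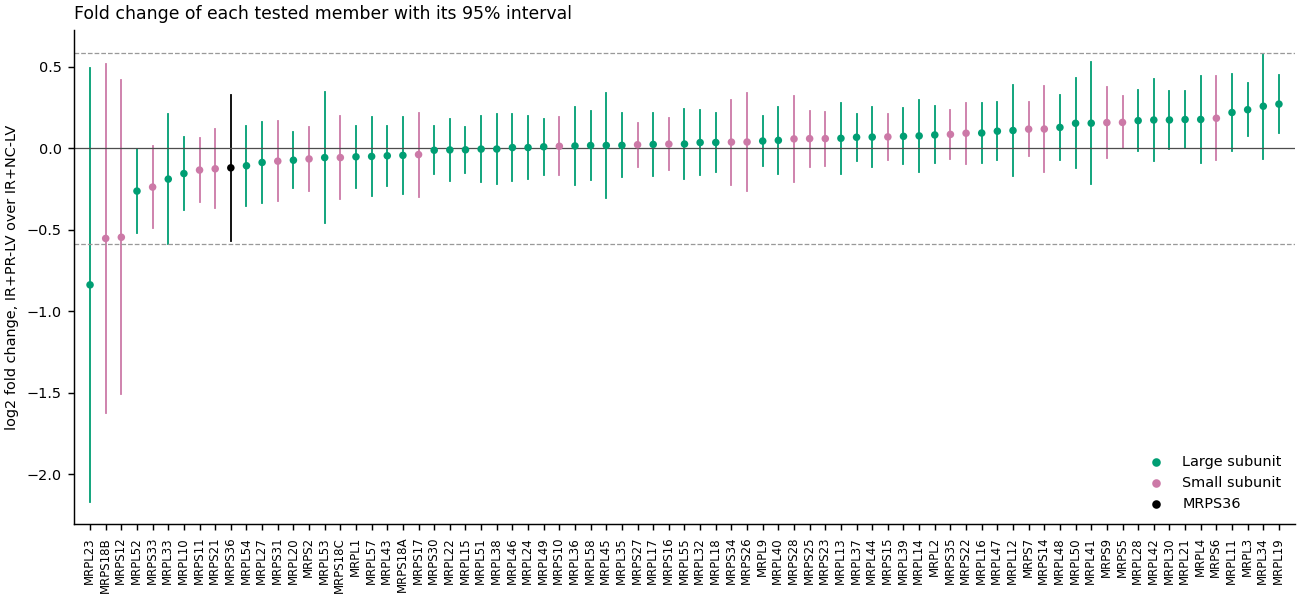
Log2 fold change, IR+PR-LV over IR+NC-LV, of the 77 tested members with its 95% interval (vertical lines), ordered by value and coloured by subunit. Dashed lines mark 1.5-fold in either direction. The points run from -0.84 for MRPL23 to 0.27 for MRPL19, and the 3 widest intervals belong to MRPL23, MRPS18B and MRPS12.

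MRPL19, the counterpart of bacterial L19 at the interface of the subunits (chr2:75646783-75662206), had the highest fold change. It had 44.6, 50.5 and 49.2 CPM in IR+NC-LV and 53.6, 60.2 and 60.0 CPM in IR+PR-LV, so that all IR+PR-LV libraries were higher. The log2 fold change was 0.27 (SE 0.08, unadjusted p = 0.0074, adjusted p = 0.304 by edgeR). Its opposite-strand neighbour GCFC2, with which it shares most exon bases, had a log2 fold change of 0.09 (SE 0.11). MRPL3 (chr3:131462212-131502971) had 186, 199 and 195 CPM in IR+NC-LV and 205, 238 and 240 CPM in IR+PR-LV. These did not overlap either, although by TPM the lowest IR+PR-LV library (385) was below the highest IR+NC-LV library (397). The log2 fold change was 0.24 (SE 0.07, unadjusted p = 0.0095, adjusted p = 0.326 by edgeR).

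In the other direction, MRPL52, a mitochondrial addition to the large subunit (chr14:22829862-22835037), had 31.3, 35.4 and 26.0 CPM in IR+NC-LV and 27.3, 26.4 and 23.9 CPM in IR+PR-LV. The groups overlapped, through IR+NC-LV 3. The log2 fold change was -0.26 (SE 0.12, unadjusted p = 0.048, adjusted p = 0.472 by edgeR). MRPS33, a mitochondrial addition to the small subunit, had 49.5, 54.4 and 40.9 CPM against 36.8, 44.0 and 42.0 CPM, overlapping in the same way (log2 fold change -0.24, SE 0.11, adjusted p = 0.491 by edgeR). Both values rested partly on IR+NC-LV 2, the highest library, and without it they were -0.15 for MRPL52 and -0.14 for MRPS33. Leaving out IR+NC-LV 3 instead moved them the other way, to -0.37 for MRPL52 and -0.34 for MRPS33.

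MRPL34, the counterpart of bacterial L34, had 20.9, 18.8 and 14.2 CPM in IR+NC-LV and 18.9, 23.8 and 21.9 CPM in IR+PR-LV (log2 fold change 0.26, SE 0.14, adjusted p = 0.570 by edgeR). MRPL11, which sits at the base of the stalk that receives translation factors, had 45.2, 47.0 and 39.9 CPM against 57.1, 52.6 and 44.2 CPM (0.22, SE 0.10, adjusted p = 0.499 by edgeR). MRPS6, the counterpart of bacterial S6, had 39.3, 38.1 and 29.9 CPM against 38.0, 45.2 and 38.6 CPM (0.18, SE 0.12, adjusted p = 0.623 by edgeR). In each of these 3 genes the groups overlapped and the lowest of the 6 libraries was IR+NC-LV 3. Without that library the log2 fold change was 0.12 for MRPL34 and 0.08 for MRPS6. MRPS6 was at 0.10 without IR+PR-LV 2, and MRPL11 at 0.14 without IR+PR-LV 1.

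The 3 most negative values belonged to the members with the widest spread. For MRPL23 the libraries had 1.61, 0.19 and 1.66 CPM in IR+NC-LV and 0.48, 0.64 and 0.65 CPM in IR+PR-LV, and IR+NC-LV 2 was the lowest of all. Its log2 fold change was -0.84 (95% interval -2.17 to 0.49). Without IR+NC-LV 2 it was -1.43 (adjusted p = 0.096 by edgeR), and without IR+NC-LV 1 or 3 it was -0.44 or -0.47. MRPS18B had 2.92, 10.9 and 3.45 CPM against 2.14, 5.44 and 4.24 CPM, with a log2 fold change of -0.55 (95% interval -1.62 to 0.52). Without IR+NC-LV 2, the library with the 195 counts on a single scaffold row, the value was 0.34. It was -0.87 without IR+NC-LV 1 or IR+PR-LV 2, -0.28 without IR+PR-LV 1, and -2.01 when its scaffold row with the most counts was tested alone. MRPS12 had 7.45, 7.12 and 1.94 CPM against 5.71, 3.40 and 2.50 CPM, and a log2 fold change of -0.55 (95% interval -1.51 to 0.42). Without IR+NC-LV 1, 2 and 3 in turn, the value for MRPS12 was -0.29, -0.32 and -0.92, and without IR+PR-LV 1 and 3 it was -0.91 and -0.32. These intervals reach more than 1.5-fold on the lower side, so lower levels of that size were not detectable given this spread. Counting error alone would give a CV of 10.1% for MRPS18B, 10.6% for MRPS12 and 25.5% for MRPL23, well under the CVs measured.

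The groups did not overlap on the CPM scale for 6 members, all higher in IR+PR-LV, and for 0 members in the lower direction. The background was 7.45% of tested names in the higher direction and 9.56% in the lower, 17% together. The other 4 besides MRPL3 and MRPL19 are named here after their values were seen. MRPL21 had 29.5 to 31.6 CPM against 33.2 to 36.8 CPM (log2 fold change 0.18, SE 0.08), MRPL28 40.5 to 44.2 against 45.1 to 52.7 CPM (0.17, SE 0.08), and MRPL48 18.4 to 20.5 against 20.5 to 22.5 CPM (0.13, SE 0.09). MRPS5, the counterpart of bacterial S5, was the only one of the small subunit, with 54.3 to 59.3 CPM against 61.8 to 67.8 CPM (0.16, SE 0.07). MRPS30, MRPS27 and MRPL15, the members with the smallest CVs, had log2 fold changes of -0.01, 0.02 and -0.01 with standard errors of 0.06 each. MRPS18A (-0.04, SE 0.11), MRPS18C (-0.06, SE 0.11) and MRPS36 (-0.12, SE 0.20) had intervals that held 0, and so did MRPL45 (0.02, SE 0.14) and the highly expressed MRPL51 (-0.01, SE 0.09).

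The summed level of all members was close in every library. It came to 0.763%, 0.767% and 0.735% of the library's TPM in IR+NC-LV (0.755% ± 0.0175, SD, n = 3) and 0.749%, 0.773% and 0.749% in IR+PR-LV (0.757% ± 0.0136, SD, n = 3). The log2 ratio of the means was 0.00, and the difference was smaller than the spread within either group. The large subunit gave 0.533% against 0.535%, and the small subunit 0.219% in both groups. On the CPM scale, the sums were 3858, 3925 and 3541 in IR+NC-LV and 3793, 4075 and 3915 in IR+PR-LV, a log2 ratio of the means of 0.06. In bulk libraries, fewer cells that express a gene and less of its RNA per cell cannot be told apart.

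IR+NC-LV 3 was the low library of the set. Only 12 of 77 tested members were above their own mean over the 6 libraries there (median log2 deviation -0.11), while 56 were above it in IR+PR-LV 2 (median 0.06) and 35 to 47 in the other libraries. IR+NC-LV 3 also had the smallest total count. Short genes moved with it, as the 2625 tested names under 2000 bases, which include 49 members, had a median deviation of -0.07 there, beside 0.00 over all tested names. The summed CPM of the cytosolic ribosomal protein genes (34968 against 38295 to 41076 in the other 5 libraries) and of the nuclear-coded respiratory chain genes (6109 against 6770 to 7227) was likewise lowest in IR+NC-LV 3. The part of RNA quality or length in these values was not tested. Without this library, the median log2 fold change of the tested members was 0.00 and 7 members had an unadjusted p under 0.05, of which 2 were higher (9.10% of all tested names met the limit in that fit). Other libraries mattered as well: that count was 11 without IR+PR-LV 1, 10 of them higher (16.5% of all tested names), and 6, all higher, without IR+PR-LV 3 (8.48% of all tested names). The adjusted count stayed at 0 members whichever library was left out.

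Genes that work with the mitochondrial ribosome were read from the same fit, and 0 of them passed the threshold in any list. The 5 ribosomal proteins that carry other names, DAP3, PTCD3, CHCHD1, AURKAIP1 and GADD45GIP1, had positive values in 5 of 5 (median log2 fold change 0.11, from 0.04 for CHCHD1 to 0.20 for GADD45GIP1), with a smallest adjusted p of 0.570 by edgeR. For assembly factors and rRNA modifying enzymes, 15 of 28 values were positive (median 0.02). C1QBP, a matrix protein needed for mitochondrial translation, had the highest of them, with 157, 163 and 160 CPM in IR+NC-LV and 192, 191 and 183 CPM in IR+PR-LV. Its groups did not overlap, yet its log2 fold change of 0.24 (SE 0.06) had an adjusted p of 0.196 by edgeR. MRM1, a methyltransferase of the large rRNA, was lowest at -0.24 (SE 0.30).

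Among 15 translation factors and mRNA handling genes, 9 values were positive (median 0.03). LRPPRC and SLIRP, whose proteins form a complex that stabilizes mitochondrial mRNAs, stood at the ends of this list. LRPPRC had 289, 289 and 270 CPM against 314, 324 and 325 CPM (0.18, SE 0.06, adjusted p = 0.326 by edgeR), without overlap. SLIRP had 39.6, 42.1 and 29.3 CPM against 36.3, 27.3 and 30.2 CPM (-0.25, SE 0.14), with overlap. The 5 genes of mitochondrial DNA transcription had positive values from 0.01 for TEFM, the elongation factor, to 0.23 for POLRMT, the polymerase (median 0.14).

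The list of nuclear regulators held the smallest adjusted p. PPARGC1A, the coactivator of mitochondrial biogenesis known as PGC-1 alpha, had 19.5, 16.0 and 22.2 CPM in IR+NC-LV and 11.9, 11.4 and 10.6 CPM in IR+PR-LV. All IR+PR-LV libraries were lower, with a log2 fold change of -0.77 (SE 0.13), but the adjusted p was 0.066 by edgeR. YY1, the factor whose site letters were searched, had 158, 159 and 150 CPM against 179, 170 and 172 CPM (0.16, SE 0.06, adjusted p = 0.391 by edgeR). The median of the 9 regulators was -0.03, with 4 positive values. For the proliferation genes, 12 of 18 were positive (median 0.05), from -0.06 for MKI67 to 0.19 for PCNA, the replication clamp. Cytosolic ribosomal protein genes had a median of 0.05 over 83 tested, and nuclear-coded respiratory chain genes -0.01 over 78 tested. Of the 13 mRNAs coded by mitochondrial DNA, 0 were among the gene names under the symbols searched, so they were not analysed here.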

How the data were processed

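Poly(A)-selected RNA of 6 HK-2 libraries was sequenced in pairs of reads. For each gene the authors deposited an unnormalized read count, and the submitters' notes name CASAVA, featureCounts 2.0.1, DESeq2 1.16.1 and hg38. The aligner is not given in the sources used here. The deposited TPM values, which the authors made from counts and gene length, served to compare levels between genes. The deposited FPKM values were not used.

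Counts were summed over rows sharing a gene name. The quasi-likelihood test of edgeR 4.0.16 in R 4.3.3 was applied after filterByExpr (minimum count 10, minimum total 15) and TMM normalization, without covariates, and p-values were adjusted by Benjamini-Hochberg over 15054 names with a threshold of 0.05. Standard errors follow from the fold change and the F statistic, and intervals are at 95%. CPM values are TMM-normalized. The CV is the root mean square of those of both groups. The procedure was tested on simulated counts. The limit of 3 counts for a count of 0 covers counting error only, while the 95% intervals include the estimated spread between libraries.

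The members and lists were chosen with earlier results of these data known. Members were named for the 5 highest and 5 lowest fold changes and levels, the 3 largest and smallest CVs, several rows, a failed filter, or a misleading symbol. From each related list the highest and lowest fold change were named. Alternatives were DESeq2 1.42.0, RLE or upper-quartile scaling, other filters, rows as listed, a replicate block, length and GC trends, and each library left out.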

Additional observations from a re-analysis of the deposited data

Results flagged for a closer look

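Transcripts named after a member but not counted as one carried counts, which flagged them as data outside the main comparison. Over the 6 libraries, MRPL20-AS1 held 1343 counts (164 to 326 per library), which is 25.5% of the count of MRPL20, and MRPL20-DT held 923 (106 to 233 per library). MRPS9-AS1 had 92 counts, MRPS30-DT had 87, MRPS35-DT had 22 and MRPS9-AS2 had 7. Each total is above the 3 counts that a count of 0 allows. Without knowledge of strand use in counting, reads of an antisense transcript and of its partner cannot be told apart.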

How the results depend on the processing

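The count of members past the threshold was 0 in all 16 fits. Gene names past it numbered 354 without a filter beyond 1 count, 34 with GC content and length trends removed, 151 by DESeq2 and 2 to 35 with each library left out, against 12. The cause was not tested. Members with an unadjusted p under 0.05 numbered 5 with RLE normalization (10.7% of all names in that fit), 11 without the filter (8.64%), 8 with the length trend removed (11.2%), 11 with GC content and length trends removed (17.3%) and 2 to 11 with each library left out (6.15% to 16.5%), against 3 (10.5%). Over the leave-one-out fits the median log2 fold change of the members lay between -0.002 and 0.065, and the log2 ratio of summed TPM between -0.016 and 0.015, while that of summed CPM was 0.057. The fold change of MRPS18B reversed to 0.34 without IR+NC-LV 2 (-0.87 to 0.34 over the leave-one-out fits) and was -2.01 with rows tested as listed, and no other named fold change reversed. Over the alternatives MRPL19 lay between 0.21 and 0.32 and MRPL3 between 0.20 and 0.31, with adjusted p of at least 0.099 and 0.104. With the replicate number as a block, 18 names and 0 members passed, and 5 members had an unadjusted p under 0.05 (10.99% of all names). Libraries of the same number deviated together weakly (r = -0.017, 0.058 and 0.059), and pairs of different numbers had r from -0.101 to 0.064. With so few libraries these values cannot show whether the numbers stand for a pairing. MRPL23 and MRPS24 had the fewest counts, 92 and 14 over the 6 libraries, and the cause was not tested.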
